A study of Homo sapiens with 16 samples.

Results

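The genes described here are the protein-coding genes of human chromosome 19 whose symbol is ZNF followed by digits, and their N6-methyladenosine (m6A) signal was read in a glioma cell line, in a drug-resistant derivative and in that derivative under an inhibitor. The annotation held 240 such genes. The strand was annotated for 210 of them and taken from their called bases for 13, so that 223 had a strand. Of these, 174 had a called base inside their span on their own strand in 2 or more of the 8 libraries, against 12589 genes of all kinds in the same data. The 66 others comprised 40 with a strand and no called base, 9 with called bases in 1 library, and 17 with no known strand. Called bases lay in the spans of 7 of those 17 (ZNF559, ZNF738, ZNF30, ZNF571, ZNF649, ZNF28 and ZNF552), which are left out of the values below.

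Zinc finger genes of this kind mostly encode DNA-binding proteins with tandem C2H2 fingers, and many carry a KRAB domain that recruits the corepressor TRIM28 and the histone methyltransferase SETDB1. KRAB zinc finger proteins are known for silencing transposable elements, and the genes lie on chromosome 19 as tandem clusters that grew by duplication. The m6A mark is written on messenger RNA mainly by the methyltransferase METTL3, often in the last exon and near the stop codon. A related mark, m6Am, is placed on an adenosine next to the cap by another enzyme, and m6A antibodies recognise it as well.

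U87-R is a derivative of U87 MG that is resistant to temozolomide (TMZ), a DNA-alkylating drug used against glioma. The first group was U87-R grown with 50 µM TMZ and given 50 µM STM2457, an inhibitor of METTL3, for 96 hours (2 libraries). The second was U87-R grown with 50 µM TMZ and labelled as a DMSO control (3 libraries), and the third was U87 MG, an established glioma line called U87 here, grown without TMZ and also labelled as a DMSO control (3 libraries). TMZ was in the medium of every U87-R library and of no U87 library, so the line and the drug in its medium cannot be told apart. The labels say neither how U87-R was derived nor whether it is a clone, and no label states that replicates are separate cultures. The p-values below therefore reflect the spread among these libraries alone, and that spread may be technical.

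The assay was m6A-eCLIP, in which fragmented polyA RNA is bound by an antibody to m6A, fixed to it by crosslinking, and the base at the crosslink is read by sequencing. For each library the files give the bases called and a score for each. The score has no stated formula, depth is unknown, and the 8 input libraries were not analysed here, so a summed score depends on how much of a transcript there was as well as on how much of it was methylated. The libraries held 105900 and 110875 called bases with STM2457, 149477 to 192697 in U87-R and 150135 to 182556 in U87. Of 8 marker genes for a mesenchymal glioma line, 6 had sums in all groups (VIM, CD44, NES, FN1, TNC and EGFR), summed to 3625 to 3816 with STM2457, 8616 to 9662 in U87-R and 8154 to 8617 in U87, and 4 of them were called lower with STM2457. GFAP (no known strand) and SOX2 were at 0 in every library. Of 8 markers of other cells, PTPRC, CD3E, EPCAM and ALB were at 0 everywhere, of which CD3E and EPCAM had no known strand. CD68 and PECAM1 passed the filter without being called in either comparison, and the summed level of the list ran between 196 and 247 with STM2457, 181 and 411 in U87-R, and 272 and 378 in U87. In bulk RNA, fewer cells with a transcript and less of it per cell cannot be told apart.

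The values below are the sum of scores over the called bases of a gene in 1 library. Genes were tested with limma on log2(sum + 1) where the sum reached 10 in 2 libraries or more, which 134 of the 174 genes did, and adjusted p-values run over all 10833 genes that passed. "Called" means a Benjamini-Hochberg adjusted p under 0.05. Of the 174, 89 had a base in all 8 libraries. At the edge of the selection stood 7 genes with bases in exactly 2 libraries, whose highest sums ran between 0.656 and 45.4 (ZNF414), and 9 left-out genes with bases in 1 library, whose highest sums ran between 0.0886 and 3.35. Neither set had a base in U87.

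Sequence is shown first for genes the results turn on. The 150 bases before a transcript start are given from RefSeq (GRCh38.p14), 5′ to 3′ on the strand of the gene, with each CG in capitals. That start is the 5′ end of the gene's span except in ZNF146, where it lies inside the span. ZNF875, ZNF415, ZNF83 and ZNF701 were called in U87-R and nearly or wholly uncalled in U87, while ZNF146 and ZNF865 had the highest sums in both lines.
ZNF875 (chr19:37312687-37312836, plus strand): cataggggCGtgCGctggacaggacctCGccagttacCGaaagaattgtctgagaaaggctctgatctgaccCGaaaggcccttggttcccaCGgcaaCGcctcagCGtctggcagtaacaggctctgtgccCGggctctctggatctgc
ZNF415 (chr19:53132911-53133060, minus strand): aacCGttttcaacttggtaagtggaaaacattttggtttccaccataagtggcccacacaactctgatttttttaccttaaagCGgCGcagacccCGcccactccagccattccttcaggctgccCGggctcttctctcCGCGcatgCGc
ZNF83 (chr19:52690497-52690646, minus strand): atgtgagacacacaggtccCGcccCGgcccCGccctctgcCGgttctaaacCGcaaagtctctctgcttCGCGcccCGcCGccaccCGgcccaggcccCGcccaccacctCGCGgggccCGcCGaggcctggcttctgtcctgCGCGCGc
ZNF701 (chr19:52570137-52570286, plus strand): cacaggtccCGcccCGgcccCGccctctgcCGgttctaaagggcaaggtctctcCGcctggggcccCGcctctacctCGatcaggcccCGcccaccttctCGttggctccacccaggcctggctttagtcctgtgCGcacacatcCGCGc
ZNF146 (chr19:36214956-36215105, plus strand): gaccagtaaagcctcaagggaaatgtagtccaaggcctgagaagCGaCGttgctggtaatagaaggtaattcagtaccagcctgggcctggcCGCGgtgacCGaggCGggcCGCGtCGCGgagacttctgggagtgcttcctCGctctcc
ZNF865 (chr19:55605497-55605646, plus strand): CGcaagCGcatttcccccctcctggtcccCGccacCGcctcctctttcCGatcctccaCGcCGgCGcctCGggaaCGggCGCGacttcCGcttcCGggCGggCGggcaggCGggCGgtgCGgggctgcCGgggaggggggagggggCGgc
The windows of ZNF83 and ZNF701, which lie on opposite strands, share a run of 40 letters. Over the whole RefSeq windows of 300 bases (250 before and 50 after the start), 19 of the 22 genes called higher in U87-R had a sequence. Of the 171 pairs among them, 40 joined genes of the same cluster. A run of 20 letters or more was shared by 7 pairs, all of them among those 40. Shared runs among genes not called are not given. The count of CG, a word that reads the same on both strands, had a median of 23 in the 19 windows (lowest 10, highest 30), against 22 in 104 other tested genes of this kind and 27 in the 8587 tested protein-coding genes with a window. Of those 8587 windows, 99.6% held at least 1 CG. No methylation of DNA was measured.

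In U87-R more of these genes carried called bases than in U87. A base was called in 152 and 159 of the 174 genes with STM2457, in 157 to 164 in the U87-R libraries and in 108 to 114 in the U87 libraries, and U87-R did not overlap U87. Called bases inside the genes, each counted once, numbered 1980, 1389 and 1669 in U87-R, against 1046, 1260 and 1293 in U87. Of all called bases they made up 1.03% ± 0.0128 under STM2457 (SD, n = 2). The shares were 0.978% ± 0.0491 in U87-R and 0.714% ± 0.0206 in U87 (SD, n = 3 each). Every U87-R library lay above every U87 library in each of these 3 measures, though 3 libraries against 3 cannot give an exact two-sided permutation p below 0.1. Of the 174 genes, 53 had no base in any U87 library, and 2 had none in any U87-R library (ZNF414 and ZNF567). For these counts and for the genes with a base per library, no share over all genes kept by the same rule is given. That rule can be met without any U87 library. A base in every U87-R library with none in U87 was seen in 32 genes, 21 of them among the 134 that passed the filter described above, beside 0.489% of all genes that passed. The reverse was seen in 0, beside 0.24% of all genes that passed.

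Among the 134 tested genes, 22 (16.4%) were called higher in U87-R against U87 and 0 lower, beside 0.997% of all 10833 genes called higher and 0.425% called lower. Unadjusted p was under 0.05 for 50 of the 134, beside 1369 of all 10833 genes. The median difference was 0.67 on the log2(sum + 1) scale, against 0.12 over all genes tested. Of the 134 differences 105 were positive, beside 6746 of all 10833. The filter bears on these counts: 21 of the 22 had no U87 library with a sum of 10, so they passed through other libraries, and 16 of the 22 had no called base in U87 at all. For those 16 the difference could not be negative, and the p-values given below for the 21 stand as a description. Over the 87 genes whose sum reached 10 in 2 U87 libraries or more, the median difference was 0.23. In this set 1 gene was called higher (ZNF480) and 0 were called lower. Over the 9546 such genes of all kinds the median was 0.10, and 42 were called higher and 46 lower. With no filter, 19 of 174 genes (10.9%) were called higher, beside 84 of 13468 genes of all kinds (0.624%). The 13468 had a base in any library, a looser rule than the 2 or more libraries asked of the 174.

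**Figure D1:**
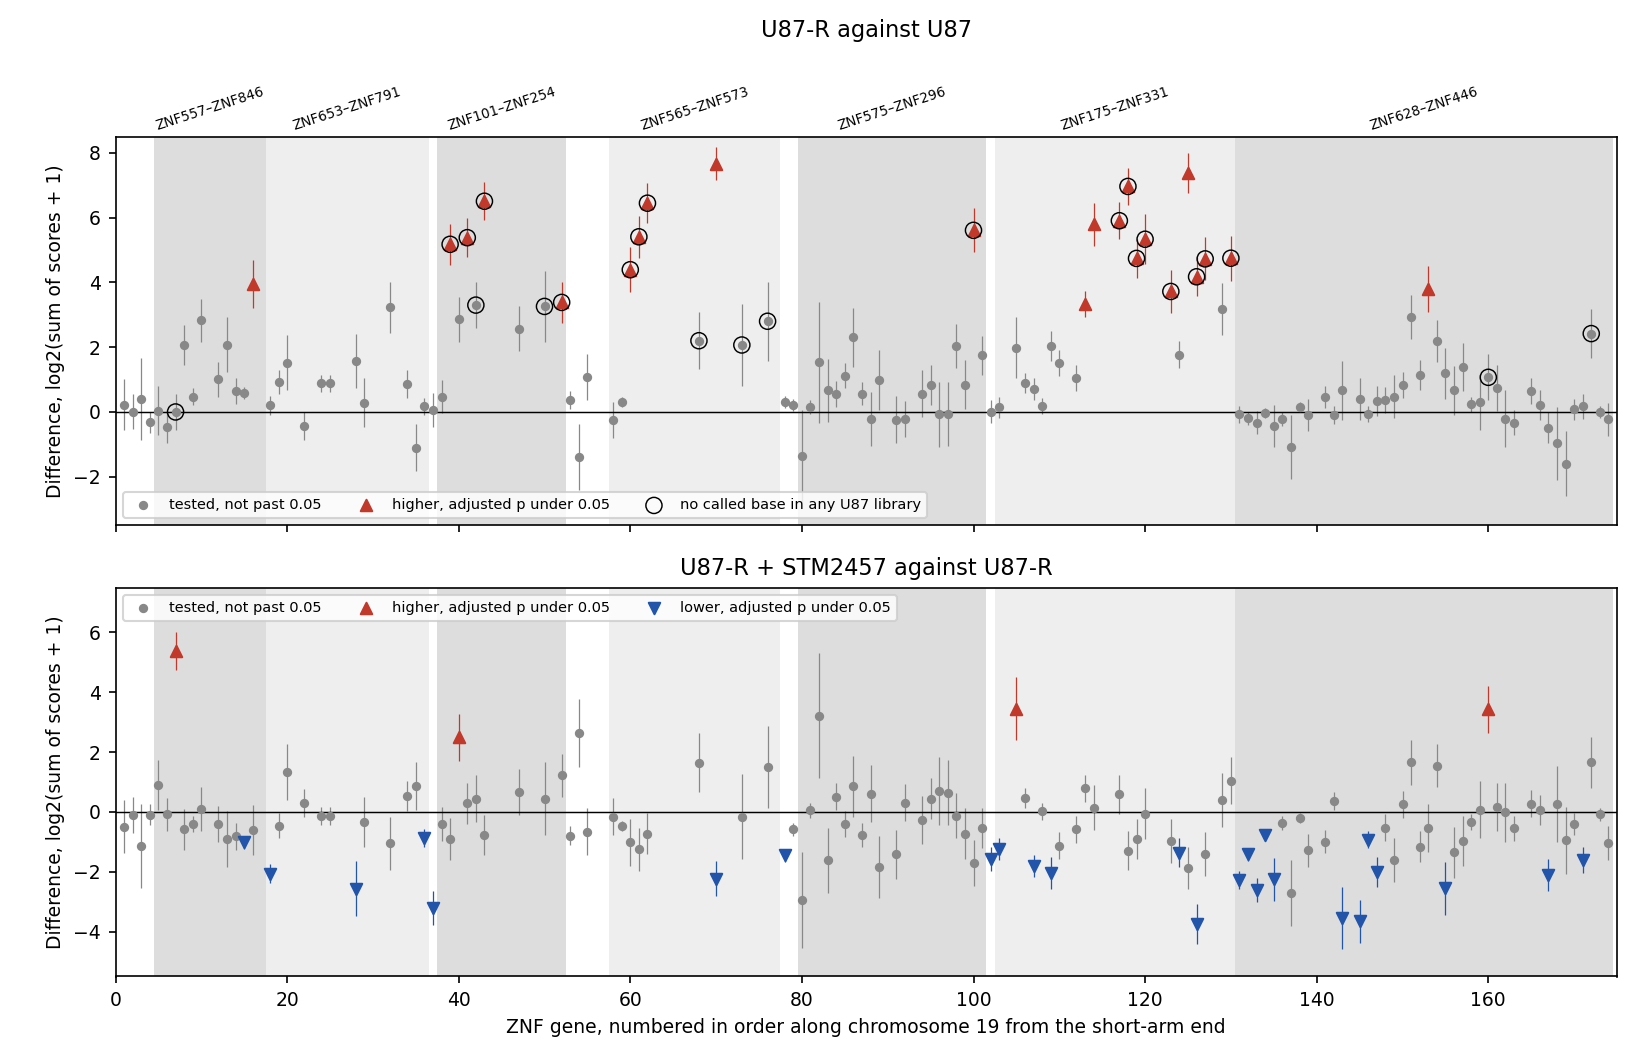
Fitted difference on the log2(sum of scores + 1) scale (y) for the 134 tested genes in order along the chromosome (x), for U87-R against U87 (top) and STM2457-treated U87-R against U87-R (bottom). Bars are standard errors, grey bands are the 7 clusters with 10 or more annotated genes, red and blue triangles are called genes, and open circles mark genes with no called base in U87, whose difference is set by the pseudocount. The red triangles of the top panel gather in 3 bands, and 11 of the 22 lie in the band running ZNF175 to ZNF331.

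Other gene sets are given for scale, and the differences between sets were not tested. Of 170 tested genes named ZNF with digits on other chromosomes, 3 were called higher and 1 lower, with a median difference of 0.11. Of 573 other protein-coding genes of chromosome 19, 4 were called higher and 0 lower, with a median of 0.09. Inside the large clusters lay 58 tested protein-coding genes that are no members, and 1 of them was called higher, the read-through gene ZNF816-ZNF321P, which shares its bases with ZNF816. Of the 53 tested genes in the whole data with a base in every U87-R library and none in U87, 21 were zinc finger genes of chromosome 19.

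ZNF875, ZNF415 and ZNF83, all on the long arm, were among the called genes with the lowest adjusted p. ZNF875 (chr19:37312837-37364455, plus strand), a KRAB zinc finger gene also known as HKR1, had sums of 43.0 and 47.1 with STM2457 and 232, 206 and 208 in U87-R, against 0, 0 and 0.203 in U87. Every U87-R library lay above every U87 library, and the limma adjusted p was 0.000919. ZNF415 (chr19:53107879-53132910, minus strand) had 65.7 and 115 with STM2457, 347, 334 and 286 in U87-R, and 0.751, 0 and 3.27 in U87. Its difference between the lines was 7.37 ± 0.62 on the log2(sum + 1) scale (SE, limma adjusted p = 0.00177). ZNF83 (chr19:52612377-52690496, minus strand), a zinc finger gene, had 36.1 and 68.8 with STM2457, 145, 104 and 125 in U87-R, and no called base in any U87 library (U87-R against U87, limma adjusted p = 0.00177). In all 3 genes the STM2457 libraries lay below the U87-R libraries and above the U87 libraries.

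**Figure D2:**
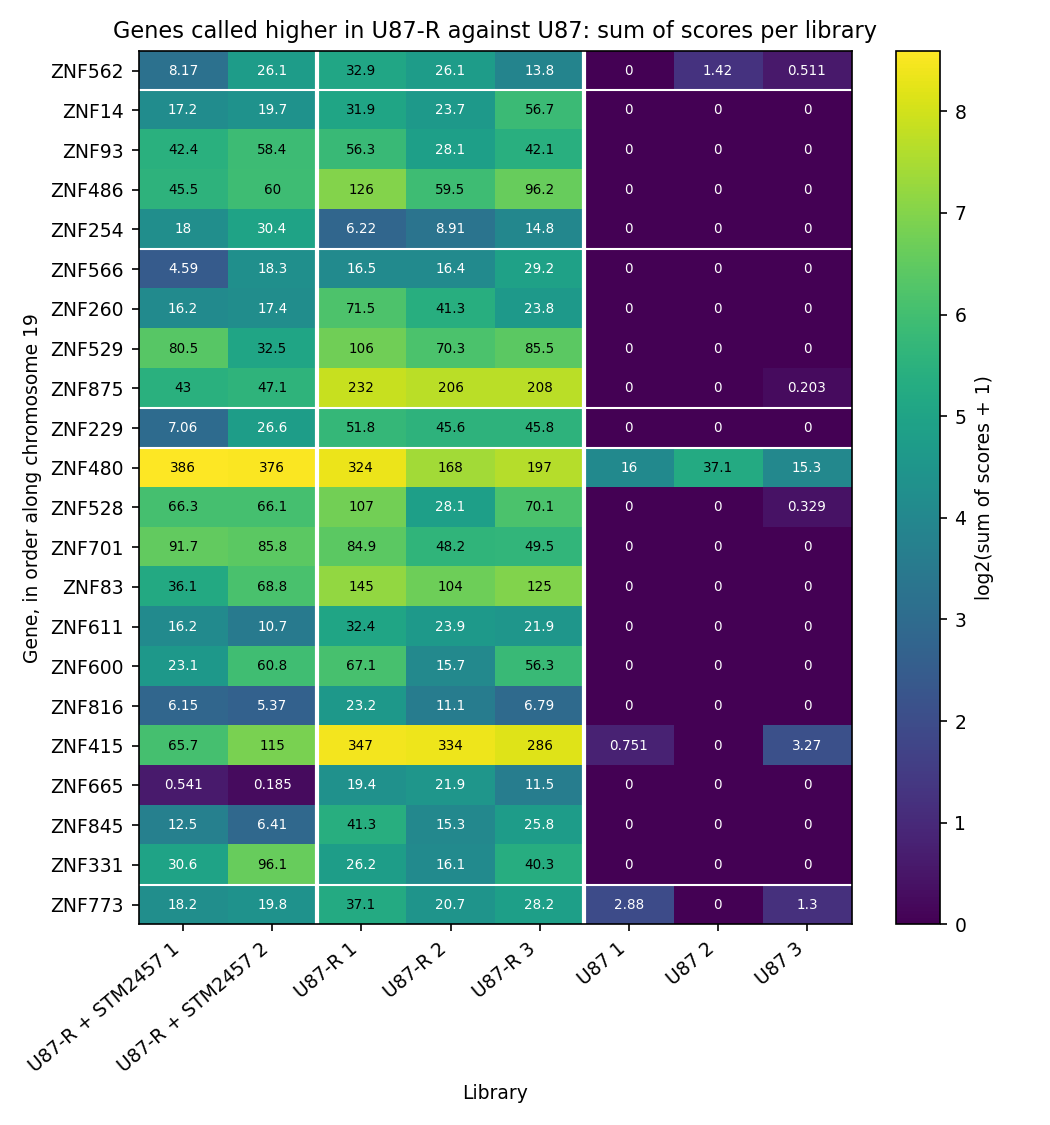
Sum of scores in each library (columns: U87-R with STM2457, U87-R, U87) for the 22 genes called higher in U87-R against U87 (rows, in order along the chromosome), coloured by log2(sum + 1) with the sum printed in each cell; thin lines part the clusters. The U87 columns are 0 in 16 rows and exceed 10 in the ZNF480 row alone, while every U87-R cell is above 6.

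Among the 39 annotated genes running ZNF175 to ZNF331 (chr19:51571283-53580269), 28 had called bases and 21 were tested. Of the 22 called genes, 11 lie here: ZNF480, ZNF528, ZNF701, ZNF83, ZNF611, ZNF600, ZNF816, ZNF415, ZNF665, ZNF845 and ZNF331. The cluster parts at ZNF480. Before it, 10 genes were kept, 8 were tested, 0 were called, and 8 had a base in every U87 library. In the run that begins with ZNF480, 18 were kept, 13 were tested and 11 were called higher, while 13 had no base in U87 and 16 had a base in every U87-R library. The place of the division was chosen after the values were seen.

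ZNF480 (chr19:52297169-52325922, plus strand) was the called gene with the most signal in U87. The strands of ZNF480, ZNF600 and ZNF665 were taken from their called bases. Its sums were 386 and 376 with STM2457, 324, 168 and 197 in U87-R, and 16.0, 37.1 and 15.3 in U87. The 3 groups did not overlap. The difference was 3.34 ± 0.40 in U87-R against U87 (log2, SE, limma adjusted p = 0.00547) and 0.78 ± 0.45 with STM2457 against U87-R (adjusted p = 0.187). When the number of called bases was fitted in place of the sum, ZNF480 was not called between the lines (limma adjusted p = 0.336). ZNF701 (chr19:52570287-52600149, plus strand) had 91.7 and 85.8 with STM2457 and 84.9, 48.2 and 49.5 in U87-R, against no called base in U87 (adjusted p = 0.00214). ZNF528 had 66.3 and 66.1 with STM2457, 107, 28.1 and 70.1 in U87-R and 0, 0 and 0.329 in U87 (adjusted p = 0.00506). For ZNF701 and ZNF528 too, every U87-R library lay above every U87 library. ZNF331, an imprinted KRAB zinc finger gene, had 26.2, 16.1 and 40.3 in U87-R and no base in U87 (adjusted p = 0.0133; 0.0526 with the replicate block).

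The other called genes of that run had lower sums. ZNF611 had 32.4, 23.9 and 21.9 in U87-R (adjusted p = 0.00661), ZNF845 had 41.3, 15.3 and 25.8 (adjusted p = 0.0104), and ZNF600 had 67.1, 15.7 and 56.3 (adjusted p = 0.0116). None of the 3 had a base in U87. Of the 28 bases of ZNF600, 18 also lie in the span of ZNF28, which has no known strand here, so they may belong to that gene. ZNF665 had 19.4, 21.9 and 11.5 in U87-R and none in U87 (adjusted p = 0.0119; 0.0620 with the replicate block). Because ZNF665 passed the filter only through the U87-R libraries, these values stand as a description. ZNF816 had 23.2, 11.1 and 6.79 in U87-R and none in U87 (adjusted p = 0.0355; 0.107 with the block), and its 13 bases all lie in the read-through gene as well.

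In the cluster running ZNF101 to ZNF254 (chr19:19668153-24129968), towards the centromere on the short arm, 15 of 37 annotated genes had called bases and 9 were tested. Of these 9, 4 were called higher. ZNF93, a KRAB protein known for binding and repressing LINE-1 retrotransposons, had 42.4 and 58.4 with STM2457, 56.3, 28.1 and 42.1 in U87-R, and no base in U87 (adjusted p = 0.00413). ZNF14 had 31.9, 23.7 and 56.7 in U87-R (adjusted p = 0.00547) and ZNF486 had 126, 59.5 and 96.2 (adjusted p = 0.00177), also with none in U87, and all 33 bases of ZNF486 lie in the span of LOC105372310 too. ZNF254 was the weakest, at 6.22, 8.91 and 14.8 in U87-R and none in U87 (adjusted p = 0.0443; 0.125 with the block, and 0.0609 with library medians centred). Only ZNF101 of this cluster had a base in every U87 library, and its sums overlapped between the lines, at 68.0, 75.9 and 60.4 in U87-R against 33.5, 104 and 32.8 in U87.

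The cluster running ZNF565 to ZNF573 (chr19:36182060-37779586) had 20 of 24 genes with called bases, of which 17 had none in U87, and 9 were tested. ZNF875, described above, ZNF529, ZNF260 and ZNF566 were called higher. ZNF529 had 80.5 and 32.5 with STM2457, 106, 70.3 and 85.5 in U87-R and no base in U87 (adjusted p = 0.00214). ZNF260 had 71.5, 41.3 and 23.8 in U87-R (adjusted p = 0.00547) and ZNF566 16.5, 16.4 and 29.2 (adjusted p = 0.0214; 0.0685 with the block), again with none in U87. ZNF146 stands among them as an exception. This gene, whose protein consists of zinc fingers without a KRAB domain, had 1641, 1192 and 1277 in U87-R and 1001, 1269 and 1026 in U87, which overlap (difference 0.31 ± 0.16, adjusted p = 0.464).

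The remaining 3 called genes lay outside those stretches. ZNF229, in the cluster ZNF575 to ZNF296, had 51.8, 45.6 and 45.8 in U87-R and no base in U87 (adjusted p = 0.00547), and it was the only gene called among the 20 tested there. ZNF562 had 32.9, 26.1 and 13.8 in U87-R against 0, 1.42 and 0.511 in U87 (adjusted p = 0.0429; 0.100 with the block). ZNF773 had 37.1, 20.7 and 28.2 in U87-R against 2.88, 0 and 1.30 in U87 (adjusted p = 0.0429; 0.102 with the block). It was the only gene called among 41 tested in the cluster ZNF628 to ZNF446, the largest of the chromosome.

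Summed over each of the 7 large clusters, with each base counted once, the ratio of U87-R to U87 was largest in the ZNF101 to ZNF254 stretch. There the sums were 308 and 321 with STM2457, 364, 216 and 356 in U87-R, and 33.5, 108 and 35.0 in U87, so that both U87-R groups lay above U87 and overlapped each other. The mean in U87-R was 5.31 times that in U87, and 9.11 times without U87 replicate 2, where ZNF101 gave 104 of the 108. Called bases averaged 62.7 in U87-R and 13 in U87 there, with a mean score per base of 4.98 in U87-R and 4.53 in U87. The ZNF175 to ZNF331 cluster had 1754 and 1979.5 with STM2457, 3278, 1968 and 2268 in U87-R, and 817, 1121 and 876 in U87. The lines did not overlap, and the ratio of their means was 2.67, with 308 called bases on average in U87-R and 122 in U87 and a mean score per base of 8.12 in U87-R and 7.69 in U87. The ZNF565 to ZNF573 cluster had a ratio of 1.58, with most of its sum from ZNF146, 126 called bases on average in U87-R and 55 in U87, and a mean score per base of 14.7 in U87-R and 21.4 in U87. In contrast the ZNF628 to ZNF446 cluster at the end of the long arm, with 44 of 57 genes carrying bases, averaged 6593 ± 1327 in U87-R and 6441 ± 755 in U87 (SD, n = 3 each), which overlap, and 37 of its genes had a base in every U87 library. No test was made on these sums.

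**Figure D3:**
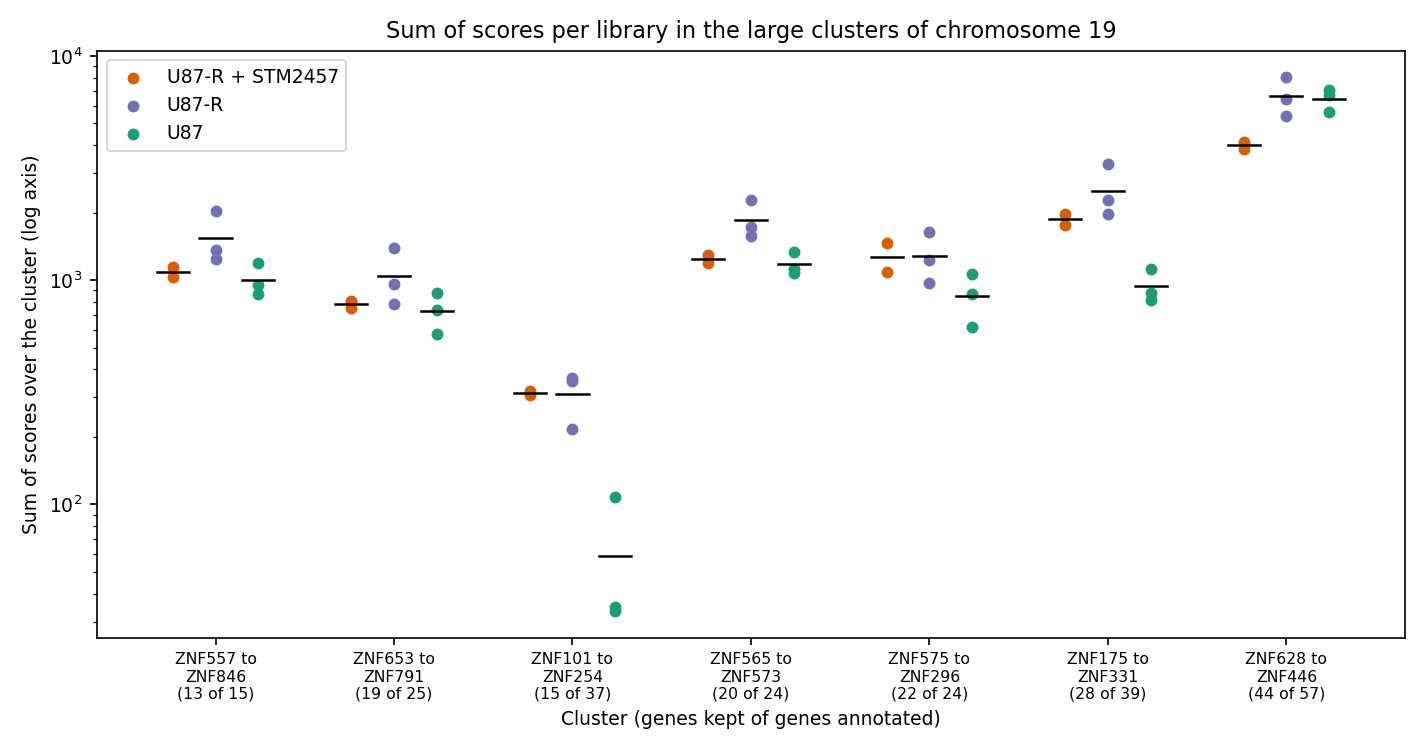
Sum of scores over all called bases of a cluster (y, log axis) in each library for the 7 clusters with 10 or more annotated genes (x, short-arm end at left); points are libraries and black lines are group means. In the ZNF101 to ZNF254 and ZNF175 to ZNF331 clusters all U87-R points lie above all U87 points, with ratios of means of 5.31 and 2.67, whereas in the last cluster they overlap.

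Of the 22 genes, 12 stayed under 0.05 whichever library was left out. The other 10 lost the call in 1 or more of these fits: ZNF562, ZNF254 and ZNF816 in every fit that could be made, ZNF773 in all but 1 (without U87-R replicate 2), and ZNF566, ZNF611, ZNF600, ZNF665, ZNF845 and ZNF331 in 2 to 6, with a highest adjusted p of 0.295 (ZNF254). The count of 22 fell to 14 without U87 replicate 1, 14 without U87-R replicate 3, and 13 without either STM2457 library, and to 9 when only the libraries of U87-R and U87 entered the fit or when bases with a score under 10 were left out. The sources used here do not say how reads that match several tandem copies were treated, so signal may be split or misplaced among close paralogs.

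At single bases the differences between the lines did not reach the threshold. Of 1596 tested bases in these genes, 0 were called in U87-R against U87 by limma over 188742 bases, of which 1 (0.00053%) was called higher and 0 lower. The unadjusted p was under 0.05 at 239 of the 1596, and 194 of those were higher in U87-R. Without U87-R replicate 2, 91 of 1401 tested bases were called higher and 1 lower, and without U87-R replicate 3 41 of 1368 were called higher. Without a U87 library 10 to 28 were called higher and 6 to 16 lower. No share over all tested bases is given for these fits, so whether the changes are particular to these genes was not tested. The lowest adjusted p, 0.0568, belonged to position 53109755 of ZNF415, 1876 bases from the 3′ end of its span, with scores of 5.02 and 11.1 under STM2457, 81.9, 68.2 and 68.0 in U87-R and no call in U87. At position 37362675 of ZNF875, 1780 bases from its 3′ end, the scores were 16.0 and 20.6 with STM2457, 42.9, 64.6 and 36.4 in U87-R and none in U87 (adjusted p = 0.0657). At both bases the U87-R scores were the highest, and neither passed the threshold. The bases were mostly private: 2661 of the 4723 (56.3%) were called in 1 library, and 182 in all 8.

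Position 52297178 of ZNF480 is the 10th base of the annotated span. It scored 126 and 108 with STM2457, 64.9, 51.1 and 53.2 in U87-R and 9.85, 8.88 and 7.03 in U87, 3 levels that did not overlap (U87-R against U87, 2.59 ± 0.21 on the log2(score + 1) scale, SE, adjusted p = 0.0657). The increase with STM2457 against U87-R was 1.04 ± 0.24 (adjusted p = 0.0167).

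Levels in the lines differed widely between genes. Per kb of span, averaged over the 6 libraries without STM2457, ZNF579 had the highest level at 179, followed by ZNF865 (127) and ZNF526 (102), while ZNF146 and ZNF576 both stood at 51.3. ZNF865 (chr19:55605647-55617269) had sums of 810.1 and 891 with STM2457, 1715, 1150.5 and 1553 in U87-R, and 1503, 1428 and 1531 in U87. Its lines overlapped, and its difference between them was -0.03 ± 0.15 (adjusted p = 0.967). ZNF579 averaged 685 ± 176 in U87-R and 773 ± 117 in U87, ZNF526 867 ± 183 in U87-R and 745 ± 134 in U87, and ZNF574 658 ± 110.5 in U87-R and 526 ± 51.8 in U87 (SD, n = 3 each). None of the 3 was called between the lines. ZNF581, at 420.1 ± 83.5 in U87-R and 494 ± 121 in U87, shares 34 of its 73 bases with other genes. Values per kb of a span that includes introns understate genes with long introns.

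In the remaining clusters the gene with the highest mean overlapped between the lines. ZNF317 averaged 502 ± 174 in U87-R and 349.8 ± 60.1 in U87, ZNF791 258 ± 66.8 in U87-R and 229.7 ± 60.7 in U87, and ZNF507 398 ± 144 in U87-R and 302 ± 73.1 in U87 (SD, n = 3 each). ZNF77, ZNF333, ZNF181, ZNF576, ZNF473 and ZNF175 likewise overlapped between the lines, with differences between -0.32 and 1.08 and no adjusted p under 0.595. ZNF473 encodes a protein of histone pre-messenger RNA processing. ZNF580 was the only tested gene whose U87-R libraries all lay below its U87 libraries, at 29.5, 40.6 and 10.0 against 44.1, 56.4 and 50.8, and all of its bases lie in ZNF581 as well. Libraries that did not overlap and stood higher in U87-R were seen in 55 of 134 genes, beside 11% of all genes tested, and lower in 1, beside 5.15%.

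With STM2457 against U87-R, 25 of 134 genes (18.7%) were called lower and 4 higher, beside 38.5% lower and 6.32% higher over all 10833 genes. The median difference was -0.49, against -0.69 over all genes, and it turned to 0.10 with library medians centred and to 0.19 with sums scaled to library totals, which moved the median of all genes to -0.10 and -0.01. With medians centred 11 of the 134 were called higher and 14 lower, beside 1724 higher and 2529 lower of all 10833 genes. With library totals 15 were called higher and 9 lower, beside 1949 higher and 2267 lower of all 10833. Of the 170 ZNF genes on other chromosomes, 69 were lower and 0 higher, with a median of -0.87, and of the 573 other protein-coding genes of chromosome 19, 235 were lower and 53 higher. Libraries lay wholly lower with STM2457 in 53 of the 134, beside 50.2% of all genes. This comparison uses the same U87-R libraries as the one above, so the 2 are not independent.

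The 10 largest losses among called genes whose libraries did not overlap were ZNF665, ZNF543, ZNF805, ZNF333, ZNF524, ZNF625, ZNF550, ZNF628, ZNF784 and ZNF875. ZNF628 (chr19:55476617-55484487) had 57.3 and 108 with STM2457 against 475, 346 and 348 in U87-R, and 326, 474 and 430.1 in U87. Its treated libraries lay below all others, with a difference of -2.28 ± 0.30 (SE, limma adjusted p = 0.000473). ZNF524 had 21.2 and 21.6 with STM2457 against 175, 92.4 and 159 in U87-R (-2.62 ± 0.40, adjusted p = 0.000964), and ZNF333 had 11.4 and 10.7 against 201, 54.3 and 124 (-3.22 ± 0.58, adjusted p = 0.00219). These 3 stayed called in every fit that left out a library.

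ZNF665 had 0.541 and 0.185 with STM2457, against 19.4, 21.9 and 11.5 in U87-R (adjusted p = 0.00224), and ZNF543 had no called base with STM2457 against 17.3, 11.2 and 8.06 in U87-R (adjusted p = 0.00351). ZNF875 fell by 2.23 ± 0.58 (adjusted p = 0.0132), with the sums given above. These 3 lost the call without either STM2457 library, with adjusted p-values up to 0.143 (ZNF665). ZNF805 had 8.18 and 0 with STM2457 against 42.2, 19.9 and 48.3 in U87-R (adjusted p = 0.0213), and lost the call without U87-R replicate 1, U87-R replicate 3 or STM2457 replicate 2 (up to 0.161). ZNF784, at 6.15 and 45.9 against 62.1, 97.7 and 105 (adjusted p = 0.0329), and ZNF550, at 25.1 and 2.61 against 47.9, 52.1 and 70.3 (adjusted p = 0.0406), also lost the call in such fits, ZNF784 without U87 replicate 3, U87-R replicate 2 or 3, or STM2457 replicate 1 (up to 0.229), and ZNF550 without any of 6 libraries, all but U87 replicate 2 and STM2457 replicate 1 (up to 0.297). ZNF625, at 0 and 5.64 with STM2457 against 19.3, 13.6 and 11.0 in U87-R (adjusted p = 0.0484), lost the call in each of the 8 and shares all 8 of its bases with ZNF625-ZNF20. ZNF665 and ZNF625 passed the filter only through the U87-R libraries, where they are high, so their values stand as a description. With library medians centred the adjusted p was 0.0573 for ZNF875, 0.0887 for ZNF784, 0.0975 for ZNF550 and 0.123 for ZNF625. With sums scaled to library totals it was 0.0551 for ZNF875, 0.113 for ZNF784, 0.116 for ZNF550, 0.103 for ZNF625 and 0.0506 for ZNF805, so these calls ended.

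**Figure D4:**
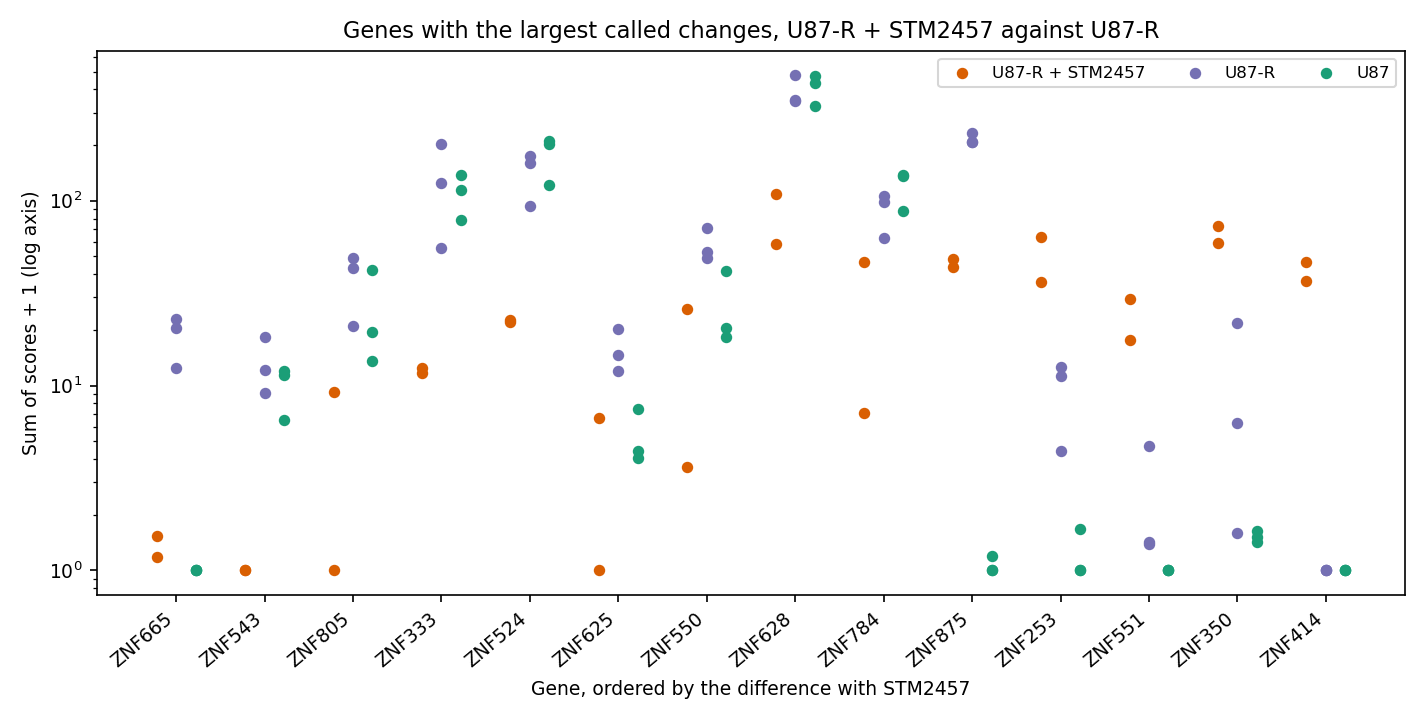
Sum of scores + 1 (y, log axis) in each library for the 14 genes with the largest called changes in STM2457-treated U87-R against U87-R (x, ordered by the difference), with the U87 libraries at right of each gene. Points at 1 have no called base. The treated points lie below the U87-R points in the 10 genes on the left and above them in the 4 on the right.

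The 4 genes called higher with STM2457 had low sums or none in U87-R. ZNF414, ZNF551 and ZNF350 passed the filter only through the STM2457 libraries, so their test could give that direction alone, and their values stand as a description. ZNF414 (chr19:8509678-8514167), with no called base in any of the 6 libraries without STM2457, had 35.9 and 45.4 with it. ZNF551 had 16.6 and 28.3 against 0.384, 3.71 and 0.418 in U87-R. ZNF350, which encodes a KRAB repressor known for binding BRCA1, had 72.4 and 58.3 against 20.8, 0.601 and 5.31 in U87-R. ZNF253 had 63.0 and 35.3 with STM2457 against 11.6, 3.44 and 10.2 in U87-R (2.49 ± 0.79, limma adjusted p = 0.0301). In each gene both treated libraries were above all others. The authors' deposited lists hold no peak in ZNF414 for any group, 0 peaks with STM2457 and 2 in U87-R for ZNF551, 4 with STM2457 and 4 in U87-R for ZNF350, and 4 with STM2457 and 1 in U87-R for ZNF253. ZNF253 lost its call without either STM2457 library (adjusted p up to 0.375). The count of lower genes fell to 13 without STM2457 replicate 1, and the count of higher genes to 0 without either STM2457 library, where ZNF414 and ZNF551 no longer passed the filter.

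Of the genes with the highest sums, ZNF574 (195 and 288 with STM2457 against 739, 532 and 701 in U87-R), ZNF579 (252 and 249 against 855, 503 and 696) and ZNF865 were called lower. Their differences were -1.45 ± 0.22, -1.41 ± 0.23 and -0.77 ± 0.17 (limma adjusted p = 0.000836, 0.00121 and 0.00603). ZNF865 lost its call with library medians centred or with sums scaled to library totals, where its adjusted p reached 0.651. ZNF146 had 908 and 1051 with STM2457 (-0.47 ± 0.18, adjusted p = 0.0540) and ZNF526 591 and 548 (-0.58 ± 0.21, adjusted p = 0.0531), both with every treated library below every U87-R library and neither called. ZNF324, at 382 and 395 with STM2457 against 514, 326 and 407 in U87-R, did not pass the threshold (-0.07 ± 0.22, adjusted p = 0.817), and under the same scalings it was called higher, at 0.52 (adjusted p = 0.0425) and 0.63 (adjusted p = 0.0206). By cluster, 12 of the 25 lower genes lay in the 41 tested of ZNF628 to ZNF446 and 0 in the 9 tested of ZNF101 to ZNF254 or the 20 tested of ZNF575 to ZNF296.

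Single bases of the same gene could differ in opposite directions with STM2457. Of the 1596 tested bases, 148 (9.27%) were called lower and 77 (4.82%) higher with STM2457, beside 16.9% and 6.65% of all 188742. The counts fell to 87 and 89 lower and to 4 higher without STM2457 replicate 1 or 2. In ZNF787, positions 56087750 and 56087762, 384 and 396 bases from the 3′ end, had no call with STM2457, against scores of 78.4, 96.4 and 82.9 at the one and 78.6, 75.0 and 77.5 at the other in U87-R (limma adjusted p = 9.53e-06 and 1.51e-05). In ZNF146, position 36237943 scored 65.0 and 85.9 with STM2457 against 126, 148 and 129 in U87-R (-0.83 ± 0.14, adjusted p = 0.00420). Position 36235860 of the same gene scored 138 and 139 against 52.0, 37.1 and 47.4 (1.60 ± 0.29, adjusted p = 0.00575). So within ZNF146 1 base was lower and another higher.

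ZNF324 held the highest score of any base in these genes, 239 at position 58472241 in U87 replicate 2. That base scored 119.9 and 127 with STM2457, 110.3, 121 and 115 in U87-R and 126, 239 and 108 in U87, and its treated scores lay within the range of the other libraries (0.10 ± 0.29, adjusted p = 0.865). In ZNF615, position 52003735 rose to 234 and 157 with STM2457 against 67.3, 45.6 and 39.6 in U87-R (1.93 ± 0.30, adjusted p = 0.00278), though the sum of the gene did not pass the threshold, at 291 and 173 against 202, 156 and 139 (adjusted p = 0.299).

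Bases close to the 5′ end took a larger share with STM2457. Within 50 nt of the annotated 5′ end lay 9.33% and 8.84% of the called bases of these genes in the STM2457 libraries, 1.94%, 3.04% and 2.76% in U87-R, and 2.25%, 2.41% and 2.13% in U87. The treated libraries lay above all others, and the 2 lines overlapped. Over all protein-coding genes the shares averaged 16.1% ± 0.595 with STM2457 (SD, n = 2), 7.29% ± 0.721 in U87-R and 6.42% ± 0.503 in U87 (SD, n = 3 each), so the share was lower in the zinc finger genes in every group. Summed scores within 50 nt were 1231 and 1241 with STM2457, 429, 371 and 426 in U87-R, and 157, 299 and 180.5 in U87, with no overlap between any groups. Elsewhere in the genes the sums were 10145 and 11439 with STM2457, 21862, 13709 and 16511 in U87-R, and 11153, 13878 and 14455 in U87. A base within 50 nt was called in 49 and 44 genes with STM2457, 23 to 26 in U87-R and 14 to 16 in U87. Over all protein-coding genes, called bases within 50 nt averaged 14921 with STM2457, 11121 in U87-R and 9612 in U87. They held 22.5%, 8.07% and 6.95% of the summed scores, so the rise with STM2457 was not particular to the zinc finger genes. Of the 77 bases called higher with STM2457, 20 lay within 50 nt, and of the 148 called lower, 0 did. This split was not made over all tested bases.

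**Figure D5:**
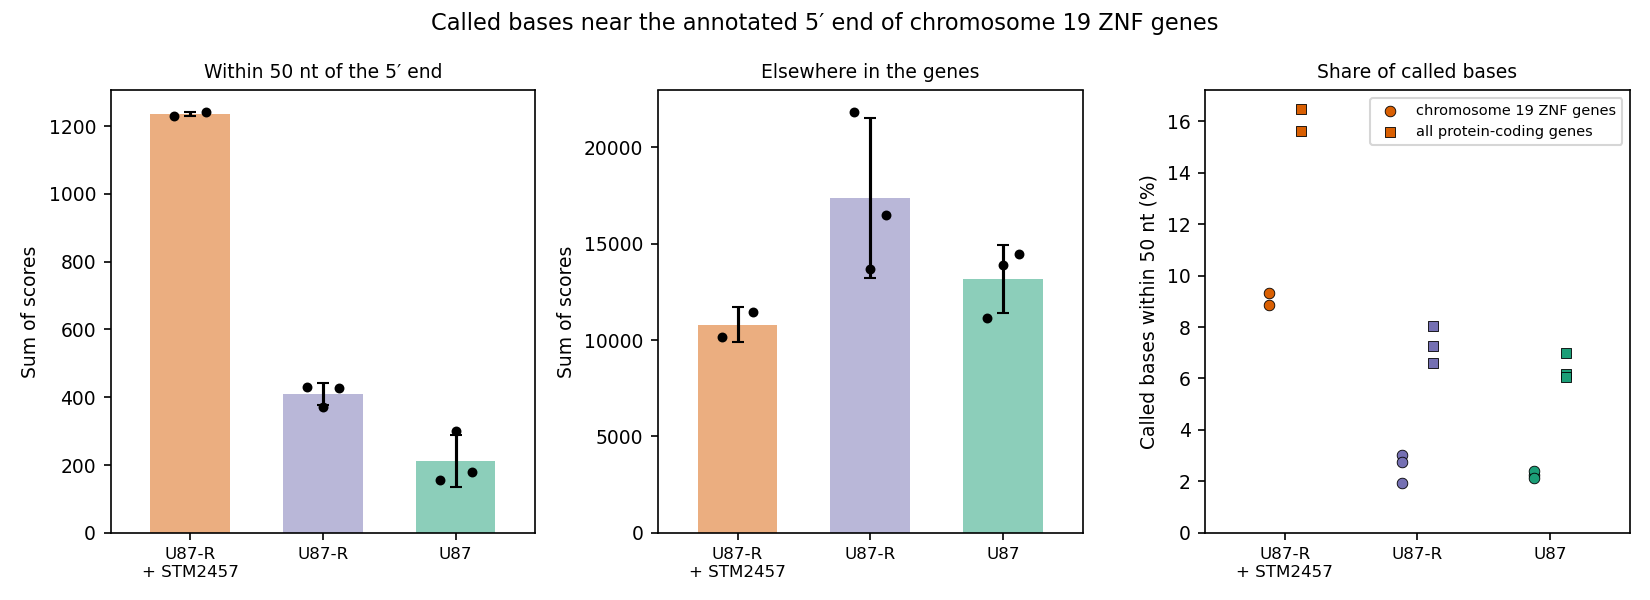
Sum of scores within 50 nt of the annotated 5′ end (left) and elsewhere in the genes (middle), and the share of called bases within 50 nt (right, circles for the 174 zinc finger genes and squares for all protein-coding genes), with the groups U87-R with STM2457, U87-R and U87 from left to right. Bars are means with SD, and points are libraries. The treated points are the highest at left (1231 and 1241) and in each set at right.

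The 5′ bases are shown for 5 genes of the ZNF175 to ZNF331 cluster, where 11 of the 22 genes called higher in U87-R lay, as RefSeq windows of 21 bases (GRCh38.p14) with the strongest called base in capitals.
ZNF701 (chr19:52570277-52570297, plus strand): acatccgcgcAgaccaggaag
ZNF766 (chr19:52269577-52269597, plus strand): agccgcctgcAgacccggaag
ZNF616 (chr19:52139928-52139948, minus strand): agtttccgtcActcccggaag
ZNF845 (chr19:53333739-53333759, plus strand): agattcgcgcAaacccggaag
ZNF415 (chr19:53132890-53132910, minus strand): agtttcctacAggcccggaaa
The capital is the base at the annotated start in ZNF701, ZNF766, ZNF616 and ZNF845, and the 11th base of the span in ZNF415. ZNF766 scored 31.1 and 34.2 there with STM2457, 14.8, 0 and 14.5 in U87-R, and 9.21, 25.9 and 0 in U87. ZNF701 scored 27.3 and 22.3 with STM2457, 12.2, 7.59 and 0 in U87-R and none in U87, and ZNF415 11.2 and 31.9 with STM2457 and none in any other library. Over all its bases within 50 nt, ZNF415 summed to 17.8 and 36.1 with STM2457, 27.6 in U87-R replicate 2 and 0 in the other libraries. At these bases of ZNF766, ZNF701 and ZNF415 both treated libraries had the higher scores, which did not hold in the other windows shown. ZNF616 scored 11.6 and 3.01 with STM2457, 0, 0 and 3.83 in U87-R and none in U87. ZNF845 scored 9.41 and 0 with STM2457 and none in any other library. In ZNF160 of the same cluster, whose window is not shown, the base at the annotated start scored 20.4 in U87-R replicate 2 and none with STM2457. Over the 164 called bases within 50 nt of the starts of these genes for which RefSeq gave the letter, 46.3% were A, against 48.4% of 20986 such bases in all protein-coding genes. Among the 49 that scored 10 or more in some library, 30 were A.

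At the 3′ end of the genes, the last 10% of the span held 33.6% ± 0.136 of the called bases with STM2457 (SD, n = 2), 38.8% ± 1.45 in U87-R and 33.8% ± 0.633 in U87 (SD, n = 3 each). The last 1 kb held 16.1% and 17.2% with STM2457, 19.5% ± 0.651 in U87-R (SD, n = 3), and 21.1%, 21.1% and 20.8% in U87. U87-R thus lay above U87 by the first measure and below it by the second, without overlap in either. Over all protein-coding genes the last 10% held 27.1% ± 0.614 with STM2457 (SD, n = 2), 37.1% ± 1.15 in U87-R and 37.3% ± 0.934 in U87 (SD, n = 3 each). Where these bases fall in exons or untranslated regions was not analysed here, since the annotation used gives gene spans only.

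A list of 24 genes for the proteins through which KRAB zinc fingers act was read in the same fit. Of the 24 genes, 21 were tested and 0 were called by limma in U87-R against U87, with an unadjusted p under 0.05 for 1. TRIM28 averaged 90.7 ± 44.0 in U87-R and 133 ± 53.6 in U87, and SETDB1 292 ± 108 in U87-R and 262 ± 24.5 in U87 (SD, n = 3 each), and both overlapped between the lines. With STM2457 against U87-R, 7 of the 21 were called lower and 2 higher (33.3% and 9.52%), close to the 38.5% and 6.32% of all genes, with a median of -0.18. CBX5, a heterochromatin protein, fell by 3.24 ± 0.47 (limma adjusted p = 0.000743), and DAXX, a histone chaperone, by 2.21 ± 0.23 (adjusted p = 0.000187). CHD4, a chromatin remodeller, rose by 1.11 ± 0.30 (adjusted p = 0.0164).

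The authors' deposited lists of reproducible sites and peaks join the libraries of a group and carry no replicate error. By the authors' deposited lists, 92 sites lay in these genes for STM2457-treated U87-R, 289 for U87-R and 208 for U87, which is 0.719%, 0.821% and 0.623% of each list. Sites were present for U87-R and absent for U87 in 31 genes of the authors' deposited lists, 13 of them among the 22 called, and the reverse held in 5 (ZNF77, ZNF230, ZNF580, ZNF417 and ZNF274). ZNF274 is known for guiding SETDB1 to the 3′ ends of zinc finger genes. Peaks of the authors' deposited lists were present for U87-R and absent for U87 in 49 genes, 20 of them among the 22, and the reverse held in ZNF792 alone. These patterns were not counted over all genes, so no share is given beside them. The lists come from the same libraries and are no independent evidence.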

How the data were processed

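m6A-eCLIP libraries of polyA RNA were analysed in 3 groups: U87-R with STM2457 (2 libraries), U87-R (3) and U87 (3). The authors deposited, for each library, the positions of called bases on build hg38, each with a score. The sources used here name neither the score's formula nor the caller and its thresholds, and the score of a base equals the smallest of the 4 scores listed beside it. The authors also deposited, for each group, joined sites and peaks with a score and the fraction of libraries in which each passed, and these were used for counts only. UMI-tools, cutadapt and STAR were used, per the submitters' processing notes. All columns of per-library values were matched to a labelled sample. The 8 input libraries were not analysed here. Depth is unknown, so no counting interval is given. From each list of cell markers 1 gene is not reported here.

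The members and lists were chosen with earlier results of these data known. Gene spans, strands and sequences came from RefSeq (GRCh38.p14). A gene without an annotated strand was given a strand from the bases alone in its span, if there were 5 or more and 80% or more of them lay on 1 strand. On 8309 genes with an annotated strand this rule gave the same strand for 97.5%. Scores of bases inside a span on its strand were summed, and a base in several spans counts in each gene, while sums over clusters and libraries count it once. Neighbouring genes under 1 Mb apart formed a cluster. Log2(sum + 1) of 10833 genes (sum of 10 or more in 2 libraries) and log2(score + 1) of 188742 bases were fitted in R 4.3.3 by limma 3.58.1, trend option on, with 3 group means and all 8 libraries, a base not listed being 0. The p-values were adjusted by Benjamini-Hochberg with a threshold of 0.05. The gene test was first tried on simulated data, with changes only in genes whose mean lay above the median. That trial does not cover genes with no called base in U87. Tables were made with Python 3.11.15, numpy 2.4.6 and pandas 2.3.3. The cluster and position values and the sums per list have no test.

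The genes named were every gene called in U87-R against U87, per direction up to 10 with the largest change called with STM2457 whose libraries did not overlap, the 6 with the highest mean sum without STM2457, the highest in each cluster, the 5 with the highest score at a base, and ZNF875, ZNF415 and ZNF83 in any case; ZNF101, ZNF580, ZNF615 at gene level and the single bases shown were chosen after their values were seen. Deviations from the group means of libraries with the same replicate number in U87-R and U87 correlated at r = 0.10, 0.31 and 0.10. Unlike numbers correlated as highly, at 0.14 for U87-R replicate 1 with U87 replicate 3 and 0.12 for U87-R replicate 3 with U87 replicate 1. Only replicate 2 stood apart, so pairing by number is not established. For STM2457-treated U87-R and U87-R, like numbers had r = -0.03 and -0.02. The p with the replicate block is given as an alternative for calls between the lines that it ended. Alternatives changed the pseudocount (10), the filter, the scaling, the score minimum, the measure, shared bases, the libraries fitted, the replicate block, the cluster gap (0.5 Mb) and the distance to the 5′ end (100 nt), and 3 were added after seeing the data.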

Additional observations from a re-analysis of the deposited data

How the results depend on the processing

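Of the 22 genes called higher in U87-R against U87, 9 were called when only scores of at least 10 were summed and 9 when only the libraries of U87-R and U87 were fitted; leaving out 1 library gave 13 to 21, and the replicate block 15. By the number of called bases 17 of the 22 stayed called, and ZNF480 did not. None was called lower in these fits. The median difference of the genes ran between 0.47 and 0.85 when 1 library was left out. The ratio of cluster sums, U87-R to U87, ran between 4.37 and 9.11 for ZNF101 to ZNF254 with 1 library left out, an alternative chosen after seeing the data, and in the other 6 large clusters it stayed within 1.5 times its value. At single bases a pseudocount of 10 gave 2 called higher, and leaving out 1 library gave 0 to 91 higher and 0 to 16 lower. No share over all tested bases is given beside these counts.

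With STM2457 against U87-R, the 4 genes called higher became 7 with no filter, 11 with medians centred, 15 with sums scaled to library totals, 2 by the number of called bases, and 0 to 5 with 1 library left out. The 25 called lower became 14 with medians centred, 9 with library totals, 15 with scores of at least 10, and 13 to 26 with 1 library left out. The counts over all genes under both scalings are given above. The median difference, -0.49, became 0.10 with medians centred, 0.19 with library totals and -0.60 with scores of at least 10; without replicate 2 of both lines, an alternative chosen after seeing the data, it was -0.68, and it ran between -0.66 and -0.24 with 1 library left out. ZNF324 turned to 0.52 with medians centred and 0.63 with library totals. The cause of these shifts was not tested. The bases called lower, 148, became 98 with the replicate block and 87 to 238 with 1 library left out, and the 77 called higher became 4 to 89. The block gave 3 genes higher and 21 lower, and 55 bases higher. Beside these counts of bases, too, no share over all tested bases is given.

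The share of called bases near the 5′ end was 10.8% with STM2457 and 2.67% in U87 within 100 nt, and 10.8% with STM2457 and 1.82% in U87 with scores of at least 10. The score gives no depth, so what depth limits cannot be stated, and a gene without a called base may still be methylated or expressed.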
